A study of Mus musculus with 2 samples.

Results

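Collagen genes were defined by their symbols, as every gene named Col, a number, the letter a and a number, and 44 of the 27998 genes in the deposited tables met this rule. They were followed across cell classes of the mouse cochlea, the spiral organ of hearing, in wild-type C57BL/6 mice on postnatal day 20, in 1 group of 2 libraries. The series asks which genes the cochlea expresses at this age, and per the labels 5 to 8 mice were used and the cells were freed by trypsin digestion. The labels do not say whether the libraries came from separate pools of mice, so any spread between them may be technical. P-values rest only on how class differences varied between these 2 libraries, pooled over classes and largely over other genes. Single-cell counts were in unique molecular identifiers (UMIs), each of which marks 1 captured transcript.

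Library 1 gave 1331 cells with a median of 10601 UMIs and library 2 gave 644 cells with a median of 6115.5 UMIs, after barcodes with fewer than 300 genes or more than 20% mitochondrial UMIs were left out. Of the barcodes, 2 occurred in both libraries. Clustering on marker genes and on a share of the remaining genes, none of them collagens, gave 18 classes, and 12 of these held at least 5 cells in each library. A class was called X-like when markers supported the name, and otherwise it was called by 2 of its leading genes. Collagens took no part in the clustering, in the names or in the markers. Together they made up 22282 UMIs (0.120%) of library 1 and 6267 UMIs (0.0966%) of library 2.

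Collagens are secreted or membrane-bound proteins whose chains wind into triple helices. Fibrillar collagens (types I, II, III, V, XI, XXIV and XXVII) build the fibres of connective tissue, cartilage and bone, FACIT collagens such as type IX sit on the surface of such fibres, and type IV collagens form the sheet-like networks of basement membranes. Type VI forms beaded filaments, type VIII hexagonal networks, types XIII, XXIII and XXV span the cell membrane, and the multiplexins XV and XVIII lie next to basement membranes. In the cochlea, types II, IX and XI are constituents of the tectorial membrane that overlies the hair cells. Inherited defects of these types in Stickler syndrome, and of the Col4a3, Col4a4 and Col4a5 chains in Alport syndrome, can impair hearing.

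Several collagen genes lie side by side. Promoter sequences are shown for type IV neighbours that start head to head, with at least 100 UMIs for both genes of the pair, where the gene has a RefSeq window. Col4a3 had no window, so Col4a4 is shown without it. On build GRCm38, Col4a1 (chromosome 8, positions 11198423 to 11312826, minus strand) and Col4a2 (positions 11312805 to 11449287, plus strand) start head to head and overlap by 22 bases in the GENCODE vM21 annotation. Col4a4 (chromosome 1, positions 82448423 to 82586849, minus strand) and Col4a3 (positions 82586921 to 82722059, plus strand) start head to head with 71 bases between them. Col4a6 and Col4a5 on the X chromosome start 1308 bases apart. The windows below run from 250 bases before to 50 bases after the RefSeq start site (GRCm38.p6), 5′ to 3′ on the gene's strand, at chr8:11312777-11313076, chr8:11312555-11312854, chr1:82586800-82587099 and, for the most abundant collagen, chr6:4505368-4505667. Capitals mark matches to the GC box GGGCGG, to CCAAT and to TATAAA on either strand.
Col4a1: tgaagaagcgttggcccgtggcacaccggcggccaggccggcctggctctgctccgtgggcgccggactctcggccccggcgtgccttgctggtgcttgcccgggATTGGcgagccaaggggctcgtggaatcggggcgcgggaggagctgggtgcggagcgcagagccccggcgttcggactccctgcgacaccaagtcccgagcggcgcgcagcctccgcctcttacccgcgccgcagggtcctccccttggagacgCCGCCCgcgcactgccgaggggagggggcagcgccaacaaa
Col4a2: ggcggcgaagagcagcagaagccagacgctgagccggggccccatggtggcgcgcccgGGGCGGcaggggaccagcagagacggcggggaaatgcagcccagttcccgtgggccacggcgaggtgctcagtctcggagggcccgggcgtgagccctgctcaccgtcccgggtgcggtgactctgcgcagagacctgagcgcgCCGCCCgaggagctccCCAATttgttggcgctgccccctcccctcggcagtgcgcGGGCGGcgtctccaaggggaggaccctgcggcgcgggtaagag
Col4a4: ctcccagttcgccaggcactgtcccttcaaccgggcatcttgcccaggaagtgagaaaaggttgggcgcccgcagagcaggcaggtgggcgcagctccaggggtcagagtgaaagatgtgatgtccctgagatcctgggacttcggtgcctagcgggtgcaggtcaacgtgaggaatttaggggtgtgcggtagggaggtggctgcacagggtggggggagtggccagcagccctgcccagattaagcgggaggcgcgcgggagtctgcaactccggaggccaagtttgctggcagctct
Col1a2: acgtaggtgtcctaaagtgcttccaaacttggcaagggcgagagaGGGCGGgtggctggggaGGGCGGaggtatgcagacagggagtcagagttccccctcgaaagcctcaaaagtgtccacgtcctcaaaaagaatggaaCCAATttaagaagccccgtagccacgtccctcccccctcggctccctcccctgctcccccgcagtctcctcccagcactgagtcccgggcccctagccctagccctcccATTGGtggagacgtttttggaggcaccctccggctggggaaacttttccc
The Col4a1 window holds 1 GC box and 1 CCAAT box, the Col4a2 window 3 and 1, the Col4a4 window none of the 3 motifs, and the Col1a2 window 2 GC boxes and 2 CCAAT boxes. The Col4a1 and Col4a2 windows overlap. The GC box of the Col4a1 window is 1 of the 3 in the Col4a2 window, read on the other strand, and is counted in both. RefSeq windows matched 35 collagen genes with 38 start sites, and 23 of these 38 windows (60.5%) hold a GC box, against 35.9% of all 32544 windows. The shares for CCAAT were 34.2% of the collagen windows and 37.4% of all, and those for TATAAA 13.2% and 13.6%. These are matches of letters and not measured binding sites.

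Mesenchymal classes carried most of the collagen UMIs, and the class led by Mgp and Fst stood above the others. Collagens were 0.990% of the UMIs of the Mgp/Fst mesenchymal class in library 1 and 0.386% in library 2. The library 2 value rests largely on 1 Bglap-rich cell described below, which held 203 of the 337 collagen UMIs of the class. In the other 5 mesenchymal classes the share lay between 0.0729% and 0.195%, namely 0.195% and 0.126% in the Rarres1/Coch class, 0.166% and 0.119% in connective tissue fibroblast-like cells, 0.136% and 0.0971% in the Tnc/Nov class, 0.112% and 0.116% in cochlear fibrocyte-like cells, and 0.103% and 0.0729% in the Tnfaip6/Sptssb class. The epithelial classes overlapped with this range, with 0.120% and 0.0753% in the Ucma/Frzb class, 0.120% and 0.0545% in Reissner membrane-like cells, 0.0975% and 0.0438% in the Fibin/Otol1 class and 0.0732% and 0.0511% in the Fabp7/Fzd9 class. Hair cell-like cells had 0.0315% and 0.0222%, and macrophage-like cells 0.0567% and 0.0106%. Erythroid cell-like cells had the lowest share of the tested classes, 0.00835% and 0.00240%, and free RNA in the droplets was not measured.

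The Mgp/Fst class held 65 cells in library 1 and 17 in library 2. It was not named, since 5 of 9 osteoblast markers were seen in at least 10% of its cells, while its leading gene Bglap, which encodes the bone matrix protein osteocalcin, was seen in 2 of 82. The osteoblast markers summed to 0.521% of its UMIs in library 1 and 2.30% in library 2, and the chondrocyte markers to 0.0183% in both. In library 2, 1359 of the osteoblast marker UMIs came from a single cell with 846 Bglap UMIs. Its collagen UMIs were unevenly spread over its cells. In library 1, the 5 cells with the most collagen held 50.2% of the collagen UMIs and 27.9% of all UMIs of the class. In library 2, 1 cell, rich in Bglap, held 60.2% of the collagen UMIs and 6.46% of all UMIs.

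The make-up of the collagen UMIs also differed between lineages. Fibrillar collagens were 48.1% to 81.3% of the collagen UMIs in the 6 mesenchymal classes and 17.1% to 49.5% in the 4 epithelial classes. These ranges met in library 2, with 49.5% in the Ucma/Frzb class and 48.1% in fibroblast-like cells. FACIT collagens showed the opposite order, with 5.58% to 13.1% in mesenchymal and 13.1% to 52.8% in epithelial classes, and only the lowest epithelial value, that of Reissner membrane-like cells in library 1, met the mesenchymal range. In the Ucma/Frzb class the FACIT share was 49.5% and 34.6%, and in the Fabp7/Fzd9 class 52.8% and 43.5%. Transmembrane collagens took their largest mesenchymal shares in the Rarres1/Coch class, with 16.6% and 17.6%, and in the Tnfaip6/Sptssb class of library 2, with 21.2%. Multiplexins were 4.95% and 8.88% in connective tissue fibroblast-like cells and 5.86% and 5.50% in fibrocyte-like cells, against at most 0.254% in the other 4 mesenchymal classes. The smallest sums behind these shares were 20, 41 and 46 collagen UMIs in library 2, of the Fibin/Otol1, Reissner membrane-like and Fabp7/Fzd9 classes.

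**Figure D1:**
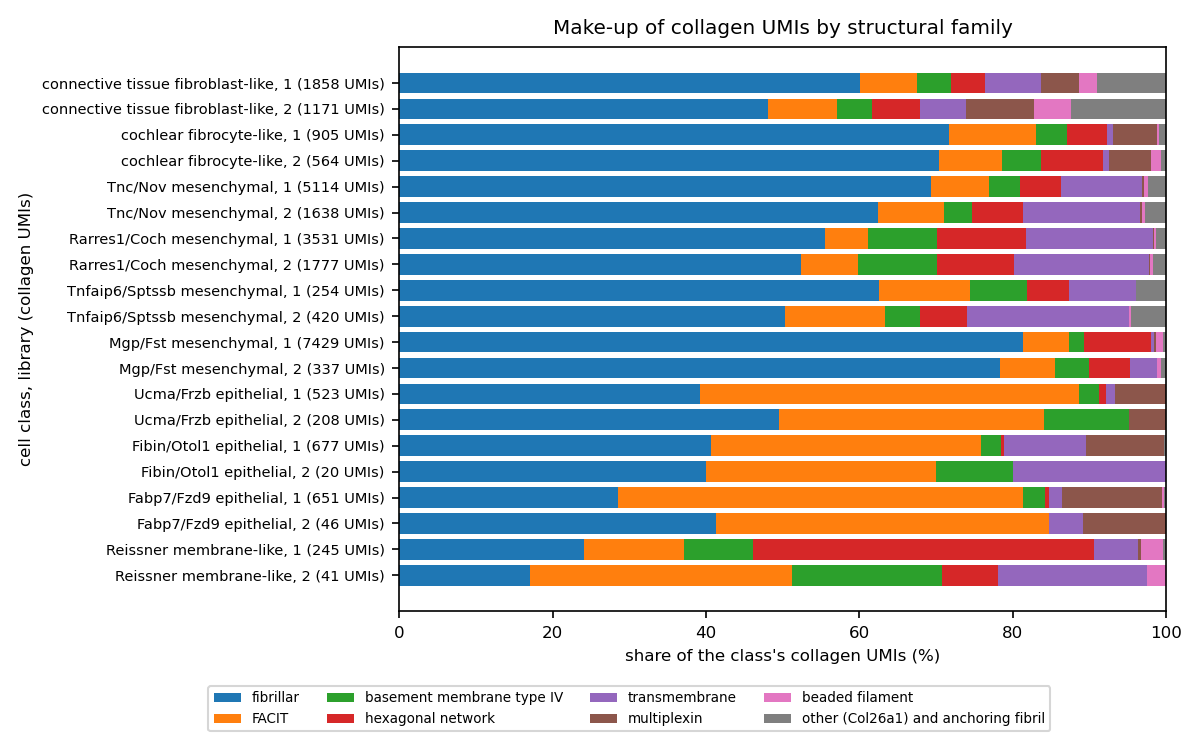
Each bar splits the collagen UMIs of 1 class in 1 library (vertical axis, with the number of collagen UMIs) into structural families, as a share in percent (horizontal axis). Orange FACIT shares reach 52.8% in the epithelial classes, where the blue fibrillar shares stay at or below 49.5%, and blue shares reach 81.3% in the Mgp/Fst mesenchymal class.

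Across all kept cells the 11 fibrillar genes took 64.3% of the collagen UMIs, 9 FACIT genes 10.8%, 4 transmembrane genes 7.80%, 3 hexagonal network genes 7.36%, 6 type IV genes 4.60%, 2 multiplexins 2.03% and 7 beaded filament genes 0.869%. No UMI was counted for Col6a4, Col6a5, Col10a1, Col17a1 or Col28a1. Another 12 genes had UMIs but too few, or in too few of the class sums, to enter the test described below; the highest of these, Col16a1, had 144 UMIs and the lowest that entered, Col24a1, had 66.

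**Figure D2:**
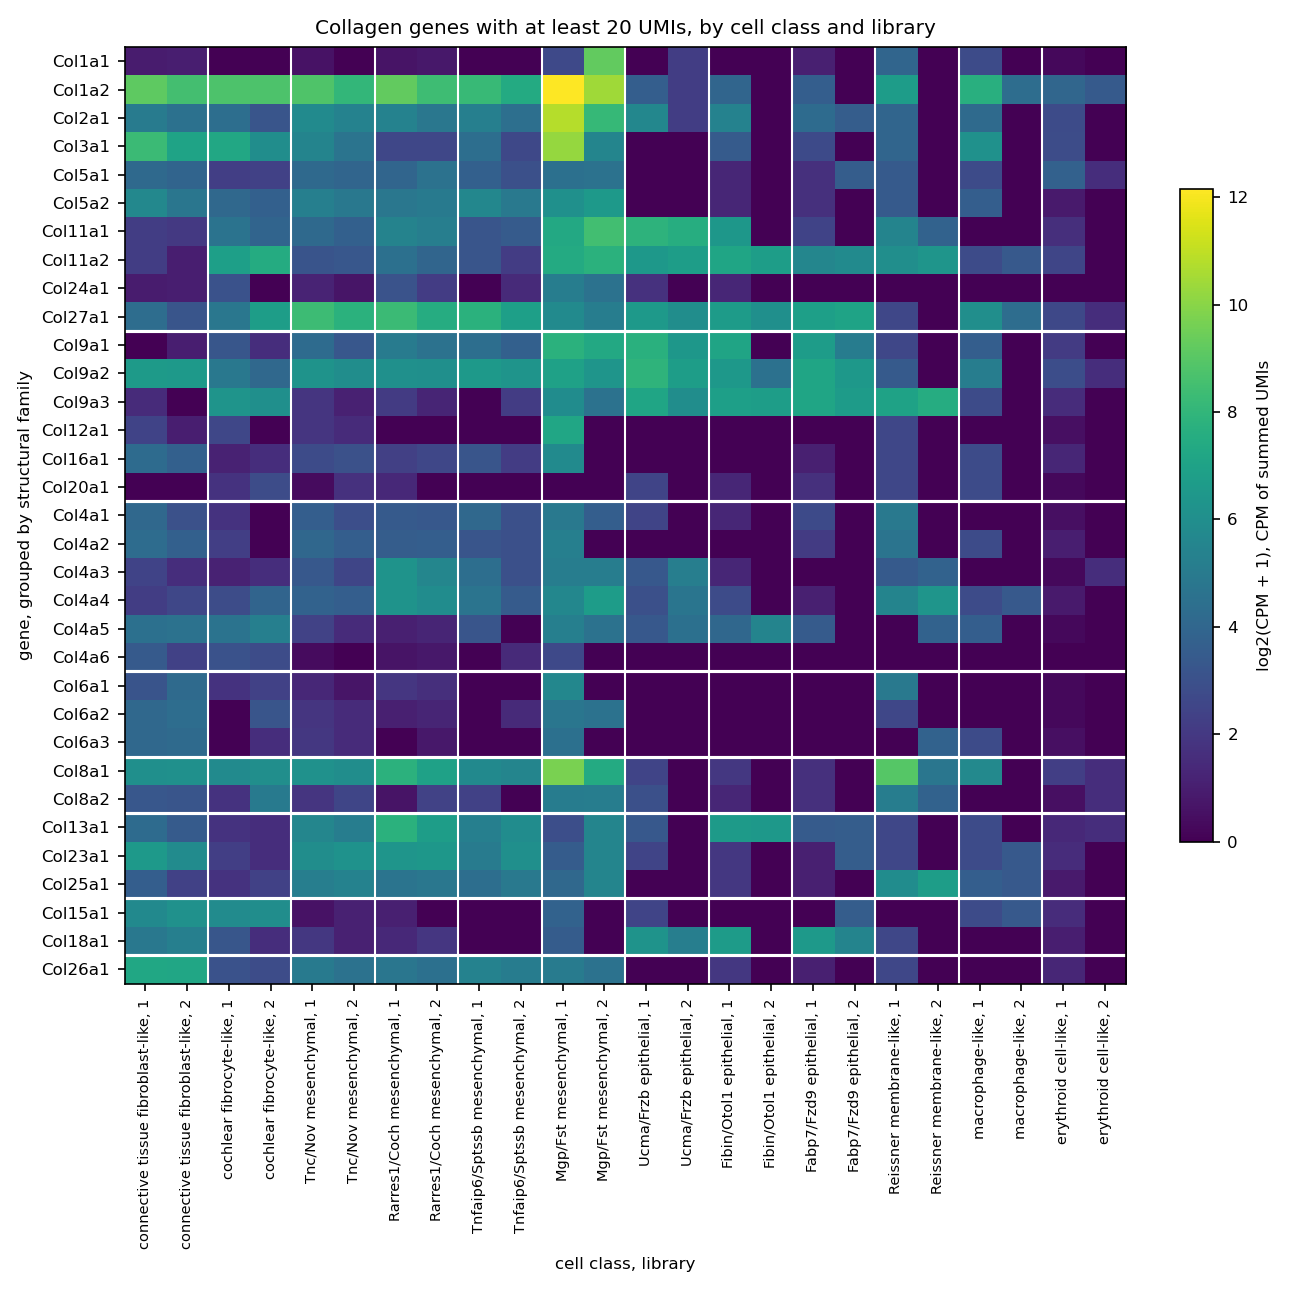
Rows are the collagen genes with at least 20 UMIs, grouped by structural family, and columns are the 12 tested classes, library 1 left of library 2; colour gives the level as log2(CPM + 1), with CPM the gene's UMIs scaled to one total for every class. The Mgp/Fst columns are the brightest for Col1a2 and Col2a1, while Col9a3 is bright in all 4 epithelial classes and dark in all mesenchymal classes but fibrocyte-like and Mgp/Fst cells.

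Type I collagen, the main fibre protein of bone and connective tissue, is built from the chains of Col1a1 and Col1a2 (chromosomes 11 and 6), and their UMIs were far apart. Col1a2 had 7430 UMIs in library 1 and 1714 in library 2, and Col1a1 had 18 and 55. The labels do not state which end of a transcript the assay reads. Per base of annotated exon (12426 and 6563 bases) the Col1a2 count was 66.2 times that of Col1a1. Each UMI marks 1 captured transcript whatever its length, so this scaling corrects for nothing. Whether Col1a1 transcripts were lost in capture or counting was not tested. Of the 73 Col1a1 UMIs, 52 lay in 1 Mgp/Fst cell of library 2, which also held 68 Col1a2 UMIs and 846 Bglap UMIs and in which osteoblast markers made up 24.1% of all UMIs. Without that cell, 21 Col1a1 and 9076 Col1a2 UMIs remained, or 432 Col1a2 UMIs for each Col1a1 UMI.

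Single cells showed the same imbalance. Among 223 cells with at least 10 Col1a2 UMIs, 215 had no Col1a1 UMI, and outside the single Bglap-rich cell the highest Col1a1 count in any cell was 3. The cell with the most Col1a2, an Mgp/Fst cell of library 1, held 519 Col1a2 UMIs and 0 Col1a1 UMIs. In the 6 mesenchymal classes, Col1a1 counts were 0 to 4 UMIs per library except for the 52 in Mgp/Fst cells of library 2. Col1a2 exceeded Col1a1 by 413 to 1 in library 1 and by 31.2 to 1 in library 2, and the pooled ratio of 125 rests on the single cell.

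**Figure D3:**
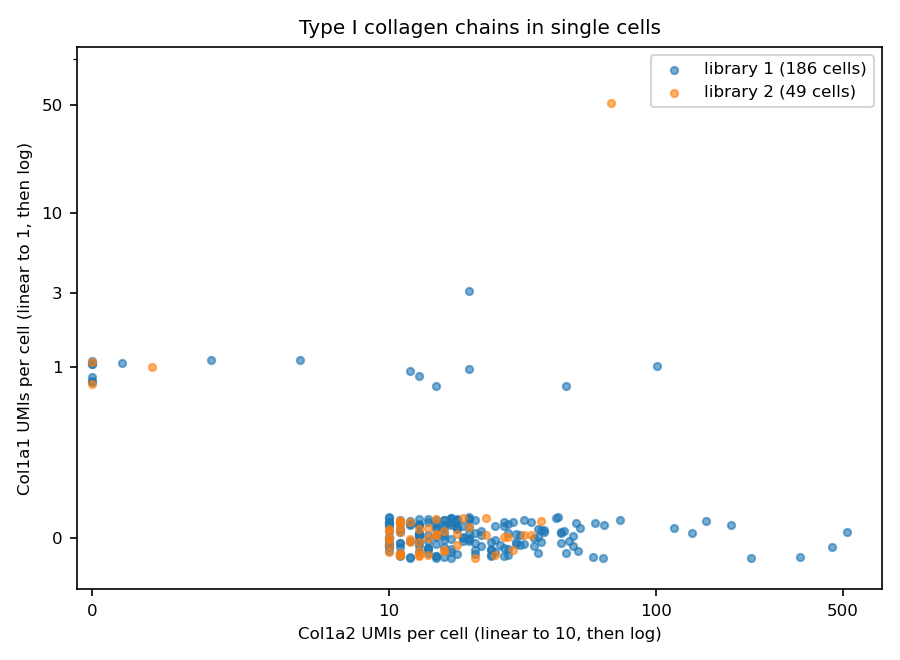
Each point is a cell with at least 10 Col1a2 UMIs or at least 1 Col1a1 UMI, with its Col1a2 UMIs on the horizontal axis and its Col1a1 UMIs on the vertical axis (both linear near 0, then logarithmic; points are spread slightly in the vertical direction). Of 223 cells at or beyond 10 Col1a2 UMIs, 215 lie on the line of 0 Col1a1 UMIs, and a single cell of library 2 lies at 52.

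Col1a2 was highest in the mesenchymal classes. Its level was 4565 and 1351 CPM (CPM, the usual depth-scaled count, is the gene's UMIs over all UMIs of the class times 1e6; library 1 is given before library 2) in Mgp/Fst cells, 604 and 338 in the Rarres1/Coch class, 555 and 363 in fibroblast-like cells, 441 and 263 in the Tnc/Nov class, 429 and 426 in fibrocyte-like cells and 292 and 174 in the Tnfaip6/Sptssb class. Mgp/Fst cells lay above every other class in both libraries, and the next 4 classes overlapped with each other. Ucma/Frzb, Fibin/Otol1 and Fabp7/Fzd9 cells had 0 to 14.4 CPM, a range that erythroid cell-like cells, with 15 and 9.99 CPM, shared. Reissner membrane-like cells had 103 CPM in library 1 and 0 UMIs in library 2, and 20 of the 21 UMIs came from 1 cell. Macrophage-like cells had 202 and 19.2 CPM.

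Type II collagen, the fibre protein of cartilage and of the tectorial membrane, had its highest level in the same class. Col2a1 reached 1775 and 286 CPM in Mgp/Fst cells, against 55.5 and 40.9 in the Tnc/Nov class, the next in order. In library 1, 25 of the 65 Mgp/Fst cells held at least 5 Col2a1 UMIs, and all 25 of them also held at least 5 Col1a2 UMIs. Of these, 18 held at least 5 UMIs of Col3a1, the type III chain of soft connective tissue. In library 2, 1 of 17 cells held at least 5 Col2a1 UMIs, 22 of the 25 in the class. Col3a1 was at 1190 CPM in the Mgp/Fst cells of library 1 but at 45.8 CPM (4 UMIs) in library 2, so that the class led in library 1 only. Fibroblast-like cells had 314 and 130 CPM of it, and fibrocyte-like cells 157 and 61.4 CPM.

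Types V and XI regulate the assembly and width of fibrils. Col5a2 was at 68.0 and 91.6 CPM in Mgp/Fst cells, with all 8 UMIs of library 2 in 1 cell, and at least 12.3 CPM, though below Mgp/Fst cells in both libraries, in the other mesenchymal classes. It had no UMI in the Ucma/Frzb class and at most 2.25 CPM in the Fibin/Otol1 and Fabp7/Fzd9 classes. Its partner Col5a1 lay between 3.70 and 23.4 CPM over all mesenchymal classes. For type XI, Col11a1 was at 161 and 355 CPM in Mgp/Fst cells and at 228 and 192 CPM in the Ucma/Frzb class. Mgp/Fst cells lay below the Ucma/Frzb class in library 1 and above it in library 2, where 26 of their 31 UMIs came from 1 cell. Col11a1 was at 23.4 and 14.3 CPM in fibrocyte-like cells. Col11a2 was at 173 and 218 CPM in Mgp/Fst cells (18 of 19 UMIs of library 2 in 1 cell), 117 and 180 in fibrocyte-like cells, 143 and 110 in the Fibin/Otol1 class and 87.4 and 109 in the Ucma/Frzb class, and at 3.57 and 1.01 CPM in fibroblast-like cells. Col27a1, a fibrillar chain of cartilage, was led by the Tnc/Nov class at 322 and 213 CPM and the Rarres1/Coch class at 316 and 181 CPM, which did not differ beyond their spread.

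The chains of type XI and of type IX did not keep a fixed ratio between classes. Over all kept cells there were 1.21 Col11a2 UMIs per Col11a1 UMI in library 1 (95% interval 1.07 to 1.37) and 1.12 in library 2 (0.909 to 1.38). In fibrocyte-like cells the ratio was 5.0 (95 and 19 UMIs) in library 1 and 12.6 (88 and 7 UMIs) in library 2. It was 0.384 (38 and 99 UMIs) and 0.566 (30 and 53 UMIs) in the Ucma/Frzb class, so the classes lay on opposite sides of the pooled ratio in both libraries. In the Fabp7/Fzd9 class of library 1 it was 10.5 (42 and 4 UMIs). Intervals are exact, from the binomial split of the UMIs of both chains, and cover counting error only.

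Type IX collagen coats type II fibrils and is assembled from the products of Col9a1, Col9a2 and Col9a3, which had separate patterns. Col9a2 was widespread, at 237 and 109 CPM in the Ucma/Frzb class, 139 and 88.9 in the Fabp7/Fzd9 class and 61.7 to 124 CPM in all mesenchymal classes but fibrocyte-like cells, which had 28.4 and 16.4 CPM. Col9a3 was at 128 and 186 CPM in Reissner membrane-like cells, 139 and 100 in the Fabp7/Fzd9 class, 117 and 110 in the Fibin/Otol1 class and 140 and 61.5 in the Ucma/Frzb class. These 4 epithelial classes overlapped, and fibrocyte-like cells at 77.7 and 65.5 CPM lay within the range of the Ucma/Frzb class. Mgp/Fst cells had 58.6 and 22.9 CPM, and the other 4 mesenchymal classes stayed at or below 3.47 CPM. Col9a1 was at 216 and 160 CPM in Mgp/Fst cells and 212 and 86.9 in the Ucma/Frzb class, and fibroblast-like cells had a single Col9a1 UMI.

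Fibroblast-like cells thus carried Col9a2 without its partners: 110 and 92 Col9a2 UMIs stood against 0 and 1 Col9a1 UMIs and 2 and 0 Col9a3 UMIs. Fibrocyte-like cells carried Col9a3 with little Col9a1, with 63 and 32 against 7 and 1 UMIs. Reissner membrane-like cells likewise had 26 and 14 Col9a3 UMIs against 1 and 0 of Col9a1 and 2 and 0 of Col9a2. In the Ucma/Frzb class all 3 chains were present, with 92 and 24, 103 and 30, and 61 and 17 UMIs. These statements set UMIs of 1 gene against those of another in the same cells, and the exon lengths of the chains differ (5068, 3095 and 3853 bases).

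Among basement membrane chains, Col4a3 was highest in the Rarres1/Coch class, where Col4a5 was close to 0. Col4a3 was at 75.5 and 46.7 CPM in the Rarres1/Coch class, above the 34.6 and 34.4 CPM (26 and 3 UMIs) of Mgp/Fst cells, and between 1.23 and 20.3 CPM in the other mesenchymal classes. Col4a4 was at 76.0 and 59.4 CPM in the Rarres1/Coch class, 48.0 and 103 in Mgp/Fst cells and 44.3 and 79.8 in Reissner membrane-like cells, which overlapped, and at 3.57 and 5.07 CPM in fibroblast-like cells. Col4a5, whose product joins those of Col4a3 and Col4a4 in 1 triple helix, differed from both in the Rarres1/Coch class, with 1.10 and 1.42 CPM (2 UMIs in each library). It stood at 21.4 and 23.3 CPM in fibroblast-like cells, 23.4 and 36.9 in fibrocyte-like cells and 37.3 and 22.9 in Mgp/Fst cells. Col4a6, with 33 UMIs in all, had 11 and 4 of them in fibroblast-like and 6 and 3 in fibrocyte-like cells, classes in which its neighbour Col4a5 was at 21.4 to 36.9 CPM.

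The ubiquitous chains Col4a1 and Col4a2 were low everywhere. Col4a1 lay between 6.52 and 29.3 CPM in all mesenchymal classes but fibrocyte-like cells, which had 2.47 and 0 CPM, and Col4a2 lay between 6.94 and 37.3 CPM in the same classes apart from 0 UMIs in Mgp/Fst cells of library 2. Across the 12 classes, Pearson's r of the mean log2(CPM + 5) was 0.915 for Col4a1 and Col4a2 and 0.863 for Col4a3 and Col4a4, against a median of 0.352 and an upper quartile of 0.593 over all 325 pairs of the 26 collagens with at least 100 UMIs. The points share libraries and depth, so these are descriptions. Col1a2 and Col5a2, which lie on different chromosomes, had the highest value, 0.950, and the tail-to-tail neighbours Col3a1 and Col5a2 had 0.747.

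**Figure D4:**
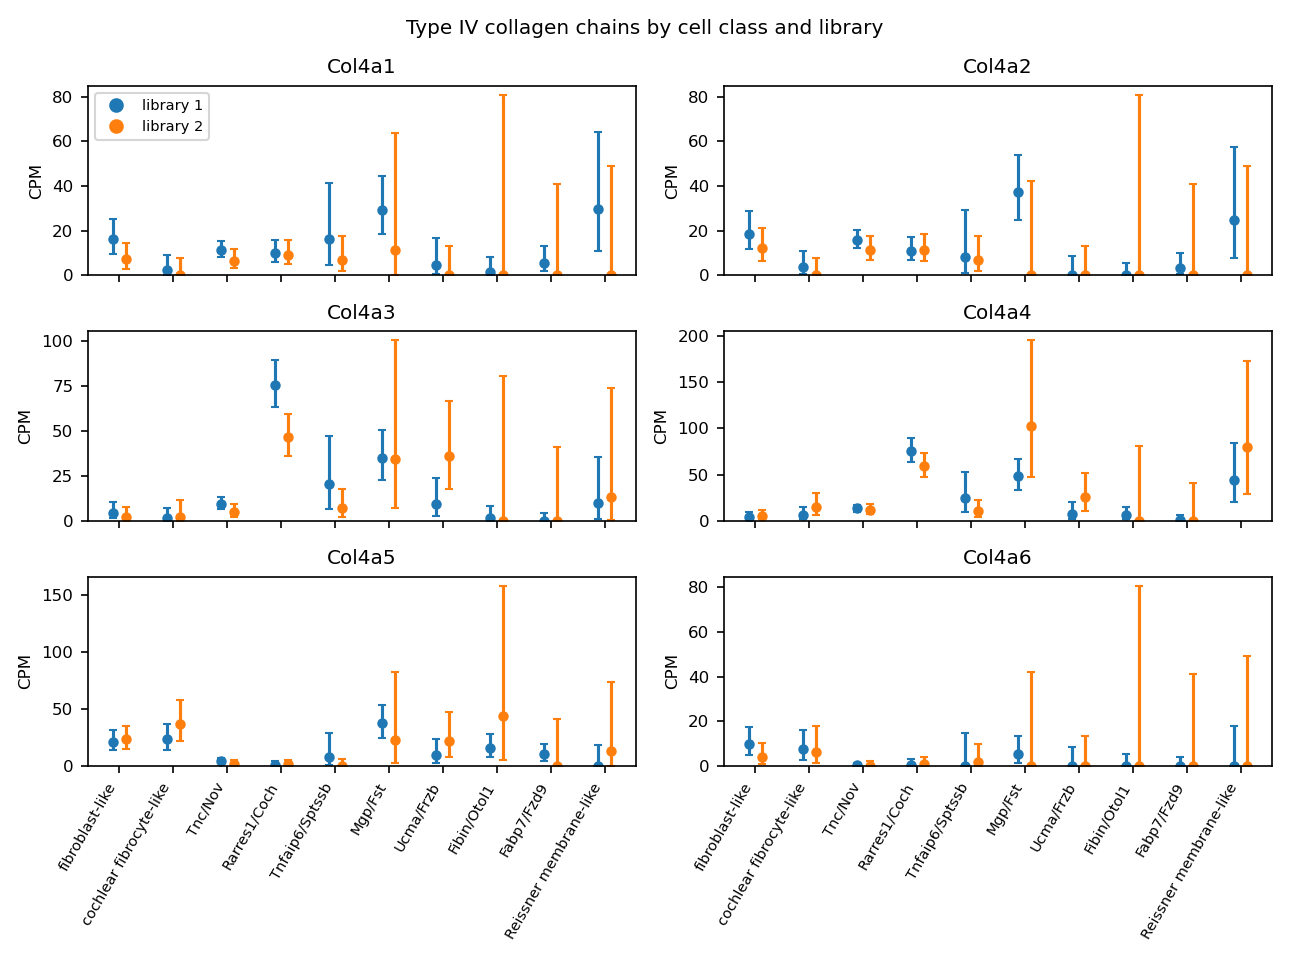
Each panel shows 1 type IV chain in the 6 mesenchymal and 4 epithelial classes (horizontal axis) as CPM with exact Poisson 95% intervals for counting error (vertical axis, linear, scaled per panel). The Rarres1/Coch class is high for Col4a3 (75.5 and 46.7 CPM) and low for Col4a5 (1.10 and 1.42 CPM), and intervals are wide where library 2 has few cells.

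Type VIII collagen is a component of subendothelial and similar matrices. Col8a1 was at 839 and 172 CPM in Mgp/Fst cells, 225 and 122 in the Rarres1/Coch class and between 45.1 and 69.9 CPM in the other mesenchymal classes. Reissner membrane-like cells had 502 CPM in library 1, where 50 and 24 of the 102 UMIs came from 2 cells of 53851 and 58205 UMIs in all, and 26.6 CPM (2 UMIs) in library 2. Type VI chains, which form the microfibrils around connective tissue cells, were sparse: Col6a1, Col6a2 and Col6a3 had 89, 83 and 72 UMIs, and in fibroblast-like cells they were at 8.03 and 17.3, 16.1 and 19.3, and 16.1 and 17.3 CPM.

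Of the transmembrane collagens, Col13a1 and Col23a1 were near 0 in fibrocyte-like cells and high in the Rarres1/Coch class. Col13a1 was at 218 and 108 CPM in the Rarres1/Coch class, 97.9 and 87.6 in the Fibin/Otol1 epithelial class, 46.5 and 34.4 in the Tnc/Nov class and 36.5 and 59.0 in the Tnfaip6/Sptssb class, and at 2.47 and 2.05 CPM in fibrocyte-like cells. Col23a1 was at 81.0 and 84.9 CPM in the Rarres1/Coch class, 90.1 and 56.8 in fibroblast-like cells and 61.7 and 73.5 in the Tnc/Nov class, which overlapped, and at 3.70 and 2.05 CPM in fibrocyte-like cells. Col25a1, first known from amyloid plaques, was at 59.0 and 106 CPM (12 and 8 UMIs) in Reissner membrane-like cells, above 35.6 and 40.3 CPM in the Tnc/Nov class. The Rarres1/Coch class had 24.8 and 27.6 CPM of it, and fibrocyte-like cells 2.47 and 4.10 CPM.

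The multiplexins shared fibroblast-like cells but differed elsewhere. Col15a1 was at 53.5 and 69.0 CPM in fibroblast-like cells and 56.7 and 61.4 CPM in fibrocyte-like cells, which overlapped, and at 0 to 13.3 CPM in all other fitted classes. Col18a1, the precursor of endostatin, was at 95.6 and 44.5 CPM in the Fabp7/Fzd9 class, 75.9 and 36.2 in the Ucma/Frzb class and 99.4 CPM and 0 UMIs in the Fibin/Otol1 class. Fibroblast-like cells had 28.6 and 36.5 CPM of it, within reach of the Ucma/Frzb class, and Reissner membrane-like cells 1 and 0 UMIs. Col26a1, which belongs to none of the larger families, was at 149 and 147 CPM in fibroblast-like cells, apart from every other class, the highest of which (Tnfaip6/Sptssb) had 40.6 and 33.0 CPM.

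Epithelial and mesenchymal lineages were then compared in edgeR's quasi-likelihood test on UMIs summed per class and library, with the library as a block and Benjamini-Hochberg adjustment over 5119 genes that had not been used for clustering. Of the 44 collagens, 27 passed the filter on low counts. In the 4 epithelial classes, 16 of the 27 were lower than in the 6 mesenchymal classes at an adjusted p under 0.05, and 24.0% of all tested genes were lower. Another 5 were higher, against 21.1% of all tested genes. The median log2 fold change of the 27 was -2.05, and that of all tested genes -0.06. A collagen that passed the filter through the mesenchymal classes alone had to differ here, so the counts describe these genes and support nothing further. When classes with fewer than 10 cells in a library were left out, 3 were higher and 10 lower, and Col4a3 and Col4a4, called lower at -2.05 ± 0.69 and -1.13 ± 0.40, stood at 0.39 and 0.52.

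The lower genes included fibrillar chains of types I, II, III and V. Col1a2 differed by -5.30 ± 0.31 on the log2 scale (SE, adjusted p = 4.77e-16), Col5a2 by -4.69 ± 0.49 (adjusted p = 9.63e-16), Col3a1 by -4.62 ± 0.86 (adjusted p = 0.000879) and Col5a1 by -3.07 ± 0.64 (adjusted p = 2.24e-05). Among chains of other families, Col26a1 was at -4.77 ± 0.52, Col8a1 at -3.84 ± 0.66 and Col23a1 at -3.52 ± 0.49. Col2a1 was lower by less, at -1.65 ± 0.37. Differences of genes with 0 UMIs in some epithelial classes depend on the prior count of the fit, and Col15a1 and Col6a1, with 0 UMIs in most epithelial sums, gave no usable standard error.

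The higher genes were Col9a3, at 4.11 ± 0.23 (adjusted p = 1.01e-35), Col11a2, at 2.00 ± 0.23 (adjusted p = 7.72e-14), Col18a1, at 3.19 ± 0.94 (adjusted p = 0.00309), Col9a1, at 1.70 ± 0.69 (adjusted p = 0.0347), and Col11a1, at 0.80 ± 0.34 (adjusted p = 0.0430). Col9a3, Col11a2 and Col18a1 were higher in both libraries taken alone. In library 2 alone, Col9a1 was at -0.38 and Col11a1 at -1.16, where the Fibin/Otol1 and Fabp7/Fzd9 classes held 7 and 6 cells. Col9a2 did not pass the test, at -0.32 ± 0.28 (adjusted p = 0.381).

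**Figure D5:**
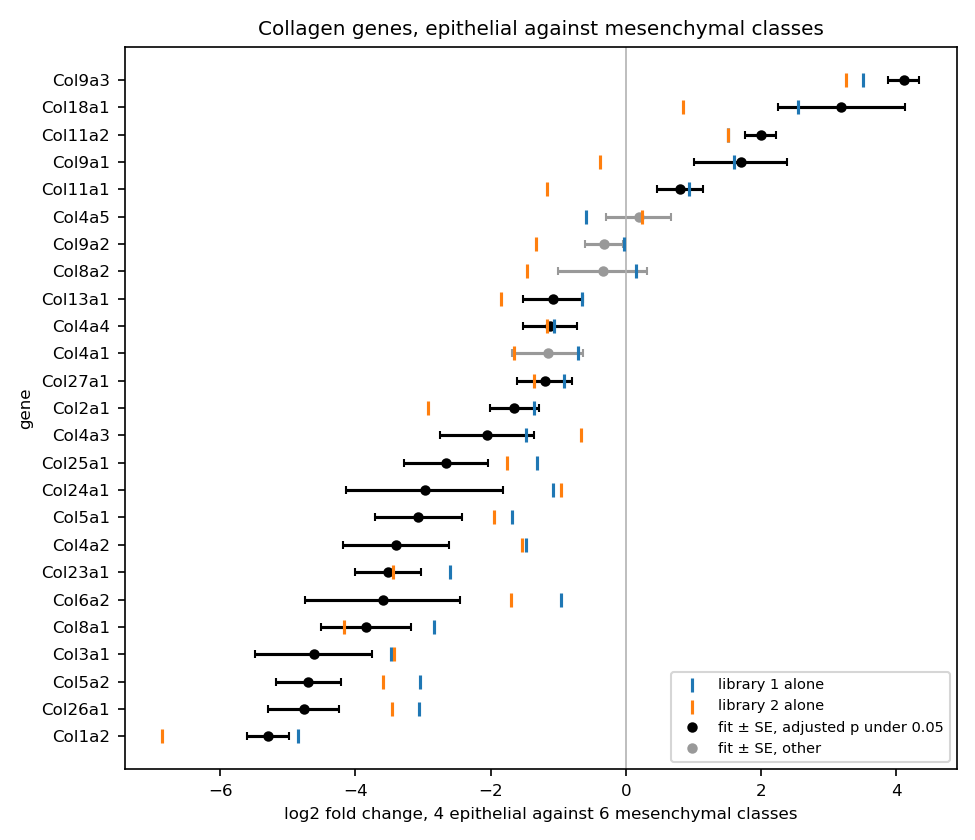
Points with bars are log2 fold changes ± SE of 25 collagens in the 4 epithelial against the 6 mesenchymal classes (horizontal axis), black at an adjusted p under 0.05; ticks are the log2 CPM difference within library 1 (blue) or library 2 (orange), computed with a prior count of 2, which draws genes with few UMIs towards 0. Col9a3 at 4.11 and Col1a2 at -5.30 mark the ends, and the orange ticks of Col9a1 and Col11a1 fall below 0.

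Each mesenchymal class was also compared with the mean of the other 5. In Mgp/Fst cells 17 of the 27 collagens were higher and 0 lower, where 3.56% and 1.17% of all tested genes were higher and lower, and the median log2 fold change of the 27 was 1.95 against -0.06 over all tested genes. At an unadjusted p under 0.05 in edgeR, 3 were lower, and DESeq2 called 0. The higher genes included chains of types II, IX and XI, with Col2a1 at 4.97 ± 0.29 (SE, adjusted p = 1.14e-12), Col9a1 at 4.45 ± 0.29 (adjusted p = 9.12e-28), Col11a1 at 3.83 ± 0.28 (adjusted p = 7.07e-23) and Col11a2 at 3.80 ± 0.28 (adjusted p = 1.69e-24). Col6a1 was at 4.14 ± 0.63, Col3a1 at 3.99 ± 0.43 and Col9a3 at 3.42 ± 0.41. Within library 1 and library 2 alone, Col3a1 stood at 4.48 and 0.60 and Col2a1 at 5.53 and 3.31, further apart than their SEs. Col1a2 was higher by 2.71 ± 0.27 (adjusted p = 4.20e-09) and Col24a1, a fibrillar chain of developing bone, by 3.57 ± 0.61 (adjusted p = 3.61e-06). Col24a1 was at 34.6 and 22.9 CPM in Mgp/Fst cells and at most 7.71 CPM in every other tested class. It thus passed the filter on low counts through Mgp/Fst cells alone and had to differ here, so its place among the 17 supports nothing further. The same holds for Col6a2, at 26.6 and 22.9 CPM here, 16.1 and 19.3 in fibroblast-like cells and at most 8.19 in other tested classes. It holds too for Col6a1, which exceeded 17.3 CPM only in library 1, in Mgp/Fst (48.0 CPM) and Reissner membrane-like cells (29.5 CPM). Of the 17, Col6a1 and Col4a2 had no UMI in the Mgp/Fst cells of library 2. Without the Bglap-rich cell, 15 collagens were higher and Col5a2 no longer passed, at 0.77 (adjusted p = 0.199). Col2a1 then stood at 4.75, Col11a1 at 3.17 and Col11a2 at 3.37. In another setting, with every cell thinned to 2000 UMIs, where 11 collagens passed the filter, 8 were higher. The share of the 1485 genes tested there that were higher was not counted. The filter favours abundant genes, so this count supports nothing further.

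In the Rarres1/Coch class 8 collagens were higher and 2 lower, against 6.66% and 2.34% of all tested genes. Col13a1 rose by 3.46 ± 0.22 (SE, adjusted p = 7.69e-28), Col4a3 by 3.19 ± 0.28 (adjusted p = 5.21e-19), Col4a4 by 2.38 ± 0.24 (adjusted p = 1.36e-15) and Col27a1 by 1.83 ± 0.27 (adjusted p = 3.82e-05). Col23a1, Col9a1, Col11a1 and Col25a1 were higher by 0.94 to 1.68. Col3a1, at -4.15 ± 0.78, and Col4a5, at -3.01 ± 0.70, were lower. In the Tnc/Nov class 4 were higher and 2 lower, against 5.68% and 2.11%: Col27a1 by 1.96 ± 0.26 (adjusted p = 1.72e-05), Col25a1 by 1.57 ± 0.25, Col23a1 by 1.30 ± 0.23 and Col13a1 by 1.07 ± 0.27 were higher, and Col11a2 and Col9a3 were lower. In the Tnfaip6/Sptssb class Col13a1 alone was higher, by 1.68 ± 0.37 (adjusted p = 0.00144), and Col11a2 and Col1a2 were lower with adjusted p of 0.0442 and 0.0443, against 1.33% and 0.371% of all tested genes. All 3 calls in this class were lost under DESeq2 and without the library block.

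Fibrocyte-like cells, which in the cochlear wall carry ion transport genes, had fewer high collagens than low ones. There, 4 collagens were higher and 12 lower, against 17.4% and 13.6% of all tested genes, and their median log2 fold change was -1.08 against 0.04 over all tested genes. Col15a1, at 4.51 ± 0.42 (SE, adjusted p = 1.20e-17), Col9a3, at 4.12 ± 0.33 (adjusted p = 4.68e-22), Col11a2, at 3.40 ± 0.25 (adjusted p = 7.36e-25), and Col4a5, at 2.1 ± 0.42 (adjusted p = 1.49e-05), were the higher genes. Col15a1 was at most at 13.3 CPM in tested classes other than fibrocyte-like and fibroblast-like cells. It passed the filter on low counts through these classes alone, so its call supports nothing further. Col23a1 and Col13a1 were lower, at -4.06 ± 0.52 and -3.98 ± 0.60, and Col2a1, Col4a1, Col4a2, Col4a3, Col4a4, Col5a1, Col5a2, Col9a2, Col25a1 and Col26a1 were lower, at -1.18 to -3.21. Col2a1 missed the threshold without the Bglap-rich Mgp/Fst cell (adjusted p = 0.0564). The count of 4 became 7 without the filter on low counts. Fibrocyte-like cells included 2 cells in library 1 and 9 in library 2 with more stria marginal than fibrocyte marker UMIs, and without them 5 collagens were higher and 11 lower.

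In fibroblast-like cells 9 collagens were higher and 7 lower, against 6.66% and 3.56% of all tested genes. Col15a1 was higher by 4.64 ± 0.38 (SE, adjusted p = 8.01e-21), Col18a1 by 3.94 ± 0.44 (adjusted p = 2.95e-12), Col26a1 by 2.76 ± 0.20 (adjusted p = 4.62e-24) and Col3a1 by 2.43 ± 0.42 (adjusted p = 0.00259). The call of Col15a1 supports nothing further, since it passed the filter on low counts through fibroblast-like and fibrocyte-like cells alone. Col6a1 and Col6a2, at 2.47 ± 0.66 and 2.38 ± 0.51, were also higher, as were Col23a1, Col4a5 and Col9a2. Col6a2 was at most at 8.19 CPM in tested classes other than fibroblast-like and Mgp/Fst cells. It passed the filter on low counts through fibroblast-like and Mgp/Fst cells alone, so its call supports nothing further. The lower genes were Col9a1 at -5.21 ± 0.73 (adjusted p = 3.71e-09), Col11a2 at -3.54 ± 0.55, Col11a1 at -3.11 ± 0.49, Col27a1, Col4a4, Col9a3 and Col4a3, while Col2a1 did not pass, at -1.10 ± 0.41 (adjusted p = 0.0986). Col9a2 missed the threshold without the Bglap-rich Mgp/Fst cell (adjusted p = 0.0516).

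Over the 6 mesenchymal comparisons there were 68 calls. Each of the 27 collagens was called in at least 1 of them and 18 were called in both directions, higher in some classes and lower in others. The shares of all tested genes called at least once or in both directions were not counted. These numbers therefore describe the collagens alone. The sign was the same in both libraries for 66 of the 68 calls. Calls were made from these same libraries, so such agreement was largely built in and is no replication. The comparisons share classes, so these counts are not independent. When each of the 12 classes was compared with all the others, 106 calls of collagens were higher and 30 lower, against 15.6% and 6.16% of the calls open to all tested genes. In these comparisons erythroid cell-like cells were above the others for Col5a1, by 3.38 ± 0.39 (SE, adjusted p = 2.74e-13), with 61 UMIs in 29 of 410 cells in library 1 and 1 UMI in 39 cells in library 2, while Col5a2 had 4 UMIs in these cells. The scale factors of the erythroid sums were the lowest of the fit, at 0.231 and 0.167, and their part in this difference was not tested.

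Genes that make, mature, link, sense and break down collagen were counted over 5 lists of 54 genes, of which 40 could be tested. In the epithelial classes 5 of the 40 were higher and 23 lower than in the mesenchymal classes, where 21.1% and 24.0% of all tested genes were higher and lower. Among 20 tested genes of synthesis and folding 2 were higher and 10 lower. P3h3, P3h1 and Crtap, which serve prolyl 3-hydroxylation, were lower, at -3.09 ± 0.26 (SE, adjusted p = 2.87e-21), -3.04 ± 0.45 and -2.55 ± 0.28, and Colgalt2, a collagen galactosyltransferase, was higher by 2.52 ± 0.32 (adjusted p = 9.64e-12). Among 6 tested receptors, Ddr2, which binds fibrillar collagen, was lower, at -4.72 ± 0.27 (adjusted p = 6.97e-34), and among 6 turnover genes Mmp2, a gelatinase, was lower, at -5.15 ± 0.27 (adjusted p = 1.67e-37). Serpinh1, the collagen chaperone, at -2.11 ± 0.20, and Ddr1, a collagen receptor of epithelia, at 1.47 ± 0.24, also passed and were chosen after their values were seen.

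Within the mesenchyme, fibrocyte-like cells had 8 of the 40 higher and 11 lower, against 17.4% and 13.6% of all tested genes. Lox, the lysyl oxidase that cross-links collagen, was at -3.52 ± 0.38 there (SE, adjusted p = 4.74e-13), the lysyl hydroxylase Plod2 at -2.58 ± 0.35, Pcolce2, which enhances procollagen processing, at 2.17 ± 0.27 and Mrc2, a receptor for collagen uptake, at 2.04 ± 0.19. In the Rarres1/Coch class 4 were higher and 2 lower (6.66% and 2.34% of all tested genes), with Lox at 3.71 ± 0.21 (adjusted p = 1.02e-27), Plod2 at 2.11 ± 0.19 and Pcolce at -2.59 ± 0.39. Lox was thus higher in the Rarres1/Coch class and lower in fibrocyte-like cells. In Mgp/Fst cells 8 were higher and 0 lower, against 3.56% and 1.17% of all tested genes (0 lower also at an unadjusted p under 0.05 in edgeR and by DESeq2), among them the collagenase Mmp13 at 6.55 ± 0.85 (adjusted p = 6.20e-10), the prolyl hydroxylase P4ha3 at 4.10 ± 0.83, Timp1, an inhibitor of such collagenases, at 2.70 ± 0.41 and Loxl1 at 2.18 ± 0.25. In fibroblast-like cells 5 were higher and 6 lower (6.66% and 3.56% of all tested genes), with Pcolce at 2.75 ± 0.25 and Plod2 at -2.85 ± 0.32. In the Tnc/Nov class 3 were higher and 1 lower (5.68% and 2.11%), with Plod2 at 1.71 ± 0.19, and in the Tnfaip6/Sptssb class 1 and 1 (1.33% and 0.371%), with Plod2 at 1.35 ± 0.25.

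To set classes side by side at 1 depth, each cell was thinned to 1000 UMIs. Col1a2 was then seen in 76.9% of Mgp/Fst cells of library 1 (exact 95% interval 64.8% to 86.5%, 65 cells) and 47.1% of library 2 (23.0% to 72.2%, 17 cells), and in 100% and 88.2% without thinning. In erythroid cell-like cells, whose median depths were 10689 and 12729 UMIs against 7332 and 5175 in Mgp/Fst cells, the thinned shares were 0.488% (2 of 410 cells) and 0 of 39 cells, and the unthinned shares 15.1% and 12.8%. Col27a1 was seen in 29.0% and 12.8% of Rarres1/Coch cells, against 0.732% and 0% of erythroid cells, and in 91.3% and 55.3% without thinning. Col9a2 was seen in 20.0% and 13.5% of Ucma/Frzb cells, 77.1% and 37.8% without thinning, and Col11a2 in 13.5% and 8.57% of fibrocyte-like cells, 61.5% and 54.3% without thinning. Col15a1 was seen in 4.67% and 8.93% of fibroblast-like cells, 32.7% and 33.3% without thinning. In erythroid cells these last 3 genes were seen in at most 2 of 410 and 0 of 39 thinned cells. A count of 0 in 39 cells has an exact upper limit of 9.03%, so library 2 alone bounds the share in these cells loosely.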

How the data were processed

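The 2 libraries form 1 group. The deposited files hold raw UMI counts per gene and barcode, which the authors made with Cell Ranger 2.1.0 on mm10, per the submitters' processing notes; filters before deposit are not given in the sources used here. Barcodes under 300 genes or over 20% mitochondrial UMIs were dropped, leaving 1331 of 1610 and 644 of 720. Scrublet marked 2 and 4 barcodes, too few to rely on in library 1, and none was removed in the main analysis. Cells were clustered with scanpy 1.11.5 (Leiden, resolution 1, 15 neighbours, 30 components) on markers and a share of the other genes; collagens and collagen-making genes were held out, except markers. Classes were named by hand from 207 markers in 28 lists.

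Counts were summed per class and library (24 sums of 45167 to 4767615 counts), filtered at a minimum count of 10 and tested in edgeR 4.0.16 by its quasi-likelihood test with TMM factors and the library as a block. P-values were adjusted by the Benjamini-Hochberg method over 5119 genes held out of the clustering. The library-alone values are log2 CPM differences with a prior count of 2. For some genes, such as Col3a1 in Mgp/Fst cells, they lay further apart than the SE of the fit. A larger ratio of fold change to SE did not always come with a smaller adjusted p. Intervals are exact, at 95%, and cover counting error only. Named genes are the collagens, with statistics where the adjusted p passed, and from the collagen-making lists the 2 to 4 largest changes that passed, with exceptions named in the text. Alternatives were DESeq2 1.42.0, its size factors, no filter, no block, other resolutions and cell filters, and leaving out each library. Members and lists were chosen with earlier results of these data known.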

Additional observations from a re-analysis of the deposited data

How the results depend on the processing

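Of 89 called results of single collagens, 83 kept their sign in each library alone and under every setting in which they were fitted. Under the planned settings in which they were fitted, 53 kept their call, with single libraries judged by sign alone. Calls were made from both libraries, so agreement in sign was largely built in. Leaving out library 1 left 85 with their sign and turned 4, Col9a1 at -0.38 (1.60 in library 1) and Col11a1 at -1.16 (0.93) in epithelial against mesenchymal classes and Col6a1 at -1.07 (3.31) and Col4a2 at -1.84 (1.59) in Mgp/Fst cells. With only classes of at least 10 cells in each library, Col4a3 stood at 0.39 and Col4a4 at 0.52 in the epithelial comparison, where 3 collagens were higher and 10 lower. Some settings were chosen after seeing the data. In the first of these every cell was thinned to 2000 UMIs before summing, which left 11 collagens to test: 2 were higher and 2 lower in fibroblast-like cells, 2 and 4 in fibrocyte-like cells, 3 and 1 in the Rarres1/Coch class, 2 and 4 in the epithelial classes, 1 higher in the Tnc/Nov class, 8 higher in Mgp/Fst cells, and 40 and 2 over the 12 class comparisons; Col11a1 was at -0.0032 in the epithelial classes. The shares of all genes called under this thinning were not counted. In the second, without the Mgp/Fst cell rich in osteoblast markers, 0 were lower in the Tnfaip6/Sptssb class. The third left out fibrocyte-like cells with more stria marginal markers.

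The library number pairs the class sums, since sums of 1 library come from the same preparation of cells. With no replicate block, 1 collagen was lower in the Tnc/Nov class, 1 lower in the Rarres1/Coch class, 0 higher and 0 lower in the Tnfaip6/Sptssb class and 3 higher in the epithelial classes. The DESeq2 Wald test called 0 higher and 0 lower in the Tnfaip6/Sptssb class, and there 1 was lower with DESeq2 size factors, without Scrublet-marked barcodes and with at least 10 cells. Without the filter on low counts, 7 were higher in fibrocyte-like cells, 2 higher in the Tnfaip6/Sptssb class, 3 higher in the epithelial classes, 1 lower in the Tnc/Nov class and 1 lower in Mgp/Fst cells. Under stricter limits on barcodes (500 genes, 10% mitochondrial UMIs), 4 were lower in the Tnc/Nov class, 2 higher and 1 lower in the Tnfaip6/Sptssb class, 1 lower in Mgp/Fst cells and 3 higher in the epithelial classes. At resolution 2.0, 2 were higher and 1 lower in the Tnc/Nov class, and 1 was lower in each of the Rarres1/Coch, Tnfaip6/Sptssb and Mgp/Fst classes. At resolution 0.5, 8 were lower in the Tnc/Nov class, 7 lower in the Rarres1/Coch class and 3 higher in the epithelial classes, and the Tnfaip6/Sptssb and Fabp7/Fzd9 classes had no counterpart. The cause of these shifts was not tested.

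Thinned to 2000 UMIs, Col1a2 was seen in 93.8% of Mgp/Fst cells of library 1, Col27a1 in 43.5% and 21.3% of Rarres1/Coch cells, Col9a2 in 45.7% of Ucma/Frzb cells of library 1 and Col15a1 in 12.7% of fibroblast-like cells of library 1. Over the libraries, the ratio of Col1a2 to Col1a1 UMIs ranged from 31.2 to 413, Col6a2 to Col6a1 from 0.788 to 1.35, Col9a2 to Col9a1 from 1.65 to 4.01, Col9a3 to Col9a1 from 0.732 to 0.876 and Col8a2 to Col8a1 from 0.0425 to 0.101. Depth limits the smallest sums, such as the 20 collagen UMIs of the Fibin/Otol1 class in library 2.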
